A study of Homo sapiens with 70 samples.

Results

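MFSD2B, GABRA2, NRXN3, SYT7, IL13RA2, MUC5AC, LCE3D, EVI2A and LINC00452 are 9 genes, out of 44503 counted, that were picked on measured values of these data for a large effect of HMGA1 knock-down or of senescence in IMR90 cells. They were followed through all 70 RNA-seq libraries, which form 11 groups. Because the selection used the HMGA1 and senescence contrasts in IMR90 cells, the values of those contrasts describe the genes and are given with no test, and the selection gives no threshold with genes just inside or outside it. The contrasts outside it, with CEBPB or p53 knock-down in senescent cells and with HMGA1 knock-down in H1299 cells, were tested. Those against OIS-v-v, the senescent vector group of the second IMR90 experiment, share its libraries with a senescence contrast that the selection may have used. A gene picked for a high or low level in those libraries would tend to differ from them in the opposite direction, which was not tested.

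The study asked how HMGA1, a chromatin protein that binds AT-rich DNA through its AT-hooks, shapes transcription in oncogene-induced senescence (OIS), the arrest that follows strong RAS signalling. IMR90 cells are normal human lung fibroblasts, and all of them carried pLNCX2 ER:HRAS, an oncogenic RAS that acts only when 4-hydroxytamoxifen (4OHT) is given. H1299 cells, which carried no such fusion, are a human non-small cell lung carcinoma line. The libraries were grouped by the labels, whose protocol speaks of 6 biological replicates for each condition, whereas the tables hold 8, 5, 7 or 6 libraries a group. All were used, and whether each is a separate culture is not stated.

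In the first experiment, IMR90 cells with the empty vector pMSCV miR were left untreated (Grow, n = 8) or were given 100 nM 4OHT for 6 days (OIS, n = 8), and cells with a short hairpin against HMGA1 in that vector were handled likewise (Grow-shA1 and OIS-shA1, n = 8 each). In the second, every IMR90 group carried both pSuper and pMSCV miR, with 5 libraries a group. Grow-v-v (untreated) and OIS-v-v (4OHT) held both vectors empty, OIS-shCEBPB held a hairpin against CEBPB in pSuper, OIS-shp53 held a p53 hairpin in pMSCV miR, and OIS-shCEBPB-shp53 held both, all 3 with 4OHT. In the third, H1299 cells held empty pMSCV miR (H1299, n = 7) or the HMGA1 hairpin (H1299-shA1, n = 6). All were stably transduced cell populations, so a knock-down is an average over cells. Fewer cells transcribing a gene cannot be told apart from less RNA per cell. The paper lists a single HMGA1 hairpin sequence and cautions that it may also act on other genes. IMR90 and H1299 cells thus share this hairpin, and whether a change seen with it depends on HMGA1 was not tested.

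The genes belong to families known from different tissues. MFSD2B exports sphingosine-1-phosphate from red blood cells and platelets. GABRA2 is a subunit of the GABA-A receptor, the chloride channel opened by the neurotransmitter GABA, NRXN3 is a neurexin, a presynaptic adhesion protein that binds neuroligins, and SYT7 is a calcium sensor for slow vesicle release and lysosomal exocytosis. IL13RA2 binds interleukin 13 with high affinity and acts mainly as a decoy, MUC5AC is a gel-forming mucin of airway and stomach epithelium, and LCE3D is a late cornified envelope protein of the epidermis. EVI2A is a small gene that lies inside NF1, and LINC00452 is a long non-coding RNA.

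Totals ran from 13904974 to 22136571 counts per library in the first experiment, apart from OIS replicate 4 with 1903607, from 14544053 to 24890797 in the second and from 17747670 to 23649765 in the third. Without OIS replicate 4 the log2 differences of the 9 genes moved by less than their spread. HMGA1 itself fell with its hairpin from 482 ± 41.4 to 34.7 ± 3.93 CPM in Grow cells (mean ± SD, n = 8 each) and from 733 ± 68.0 to 59.6 ± 5.65 CPM in OIS cells, log2 changes of -3.79 and -3.62. CEBPB was 295 ± 25.7 CPM in OIS-v-v and 35.5 ± 6.56 in OIS-shCEBPB (n = 5 each). CPM give a gene's count relative to the library total after scaling with TMM factors, which were set separately in each experiment, and no test was made across experiments. The IMR90 cells held fibroblast markers: the summed level of 10 such markers was between 48700 and 62400 CPM in Grow and between 10900 and 12800 CPM in OIS libraries. In any IMR90 library 6 blood cell markers summed to at most 1.26 CPM. Of 5 epithelial markers in H1299 cells, KRT8 (mean 495 CPM) and KRT18 (445) were high, while EPCAM (0.147), CDH1 (0.276) and KRT19 (0.214) were near the floor.

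MFSD2B was the gene whose level went with HMGA1 in the first experiment. It lay between 10.2 and 15.7 CPM in the 8 Grow libraries (median 13.2) and between 1.17 and 2.07 in Grow-shA1 (median 1.68). In OIS cells it ran from 13.8 to 23.2 CPM (median 18.8), and in OIS-shA1 from 1.47 to 2.90 (median 2.04). The groups with and without the hairpin did not overlap, and the log2 differences were -2.93 (SE 0.12) in Grow and -3.26 (SE 0.12) in OIS. Senescence itself made a small difference, 0.66 (SE 0.09) without the hairpin and 0.31 (SE 0.18) with it, and the Grow and OIS libraries overlapped. Its exons (4416 bases on chromosome 2, hg19 24232951-24286191, plus strand) share 464 bases with FKBP1B on the same strand, and reads in shared exons were not counted for either gene. FKBP1B fell in Grow-shA1 by 0.53 on the log2 scale (SE 0.18, adjusted p = 0.0258), from 2.57 to 1.78 CPM.

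In the vector controls of the second experiment MFSD2B was low although HMGA1 was high. Its level was 0.972, 1.13, 0.938, 0.949 and 1.81 CPM in the Grow-v-v libraries and 1.19, 0.709, 1.51, 0.757 and 1.08 in OIS-v-v. The means, 1.16 and 1.05 CPM, lay below the range of either vector group of the first experiment, whose HMGA1 hairpin groups ran from 1.17 to 2.90, while HMGA1 lay between 934 and 1875 CPM in Grow-v-v and between 1107 and 1605 in OIS-v-v (n = 5 each). The order of MFSD2B with HMGA1 therefore held within the first experiment and not between the 2 IMR90 experiments, which differ in vectors and in library series, and these cannot be told apart.

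**Figure D1:**
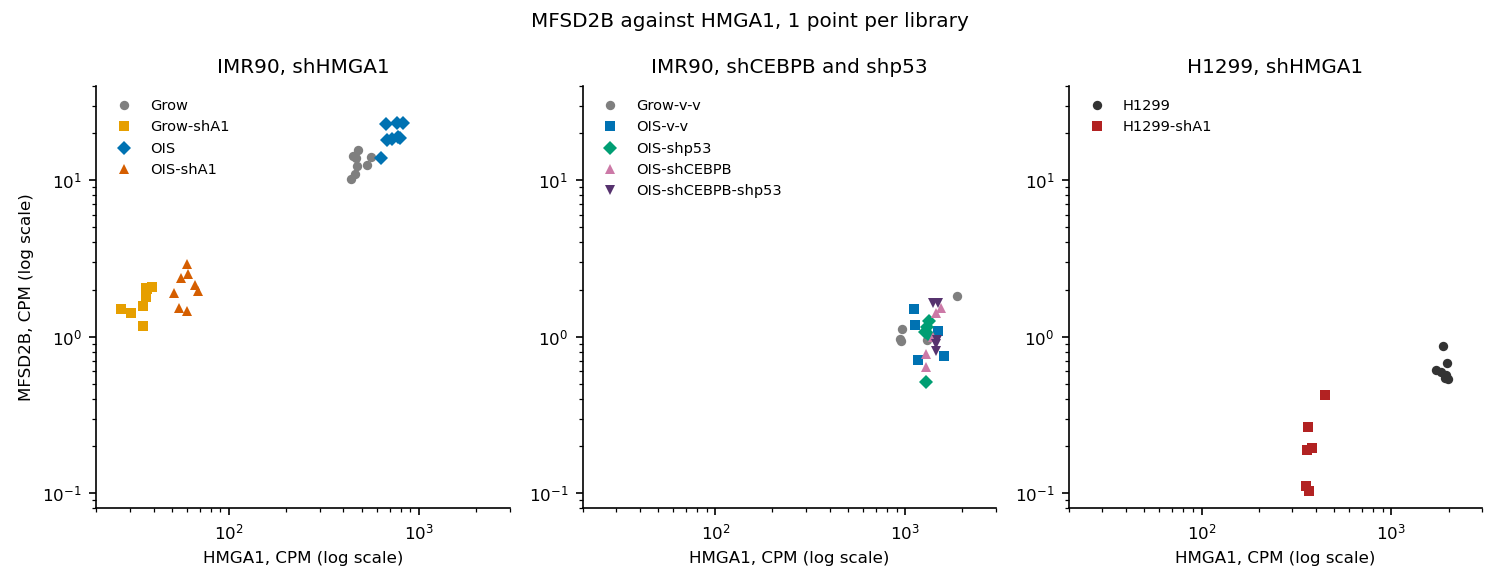
MFSD2B (vertical axis, CPM, log scale) against HMGA1 (horizontal axis, CPM, log scale), with 1 point per library, in the 3 experiments. In the left panel the hairpin libraries reach at most 2.90 CPM of MFSD2B and the vector libraries at least 10.2, while in the middle panel all libraries lie between 0.513 and 1.81 CPM at HMGA1 levels above those of Grow and OIS.

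The RefSeq promoter window of MFSD2B (250 bases before to 50 bases after the start, GRCh38.p14, chr2:24009835-24010134, plus strand) is shown because the gene went with the level of an AT-binding protein. It held 27.3% A and T, against a median of 41.3% over the 35116 windows of the table, of which 13.6% held less. Of the motifs AAATTT (in 7.52% of all windows), TATAAA or TTTATA (11.5%), TGANTCA (7.71%) and TTGCNNAA or TTNNGCAA (10.5%), searched on both strands, none matched in it.
MFSD2B window 1: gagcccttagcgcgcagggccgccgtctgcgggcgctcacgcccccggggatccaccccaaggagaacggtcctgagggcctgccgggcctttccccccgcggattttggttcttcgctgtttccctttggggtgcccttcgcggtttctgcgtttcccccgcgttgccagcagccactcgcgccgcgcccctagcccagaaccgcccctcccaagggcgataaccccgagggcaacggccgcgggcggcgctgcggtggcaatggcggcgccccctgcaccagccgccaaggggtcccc

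GABRA2 was the most abundant of the 9 genes in the OIS group. It lay between 7.43 and 11 CPM in Grow (median 9.36) and between 128 and 182 in OIS (median 164), a log2 difference of 4.13 (SE 0.09) with no overlap. With the HMGA1 hairpin it ran from 3.91 to 7.95 CPM in Grow cells (median 5.02) and from 48.7 to 93.1 in OIS cells (median 65.5), differences of -0.82 (SE 0.13) and -1.25 (SE 0.10). The Grow groups overlapped and the OIS groups did not. Per kilobase of exon (11632 bases, chromosome 4, hg19 46250444-46477247, minus strand) it reached 13.8 CPM in OIS, ahead of IL13RA2 (8.61), LCE3D (5.37) and MFSD2B (4.45). LINC00452 (1.80) and MUC5AC (1.09) followed, and SYT7 (0.484), EVI2A (0.232) and NRXN3 (0.0175 CPM per kb) stood last.

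NRXN3 went the other way in senescence. It lay between 2.96 and 7.86 CPM in Grow (median 6.89) and between 0 and 0.393 in OIS (median 0.2204), a log2 difference of -4.78 (SE 0.28). In growing cells the HMGA1 hairpin brought it to between 0.460 and 1.09 CPM (median 0.812), a difference of -3.08 (SE 0.19) with no overlap. In OIS it had 30 counts over the 8 vector libraries and 21 over the 8 hairpin libraries, which was under the filter on low counts. It spans 1622029 bases of chromosome 14 (hg19 78708734-80330762, plus strand) with 11335 exon bases.

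SYT7 and IL13RA2 were higher both in senescence and with the hairpin. SYT7 (chromosome 11, hg19 61282785-61348620, minus strand) had medians of 0.539 CPM in Grow (0.113 to 1.32), 2.67 in Grow-shA1 (1.03 to 3.83), 2.82 in OIS (2.01 to 3.78) and 13.3 in OIS-shA1 (11.3 to 16.4). Its log2 difference with the hairpin was 1.90 (SE 0.35) in Grow, where the groups overlapped, and 2.20 (SE 0.12) in OIS, where they did not. IL13RA2 (chromosome X, hg19 114238538-114254540, minus strand) had medians of 2.01 CPM in Grow (0.721 to 2.73), 9.53 in Grow-shA1 (7.15 to 11.5), 13.9 in OIS (11.4 to 16.1) and 25.4 in OIS-shA1 (18.1 to 29.6). The hairpin difference of IL13RA2 was 2.43 (SE 0.18) in Grow and 0.81 (SE 0.09) in OIS, with no overlap in either.

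MUC5AC and LCE3D together had 1 count in the 16 growing libraries of the first experiment and were counted in OIS. MUC5AC (chromosome 11, hg19 1151580-1222364, plus strand) ran from 1.05 to 13.8 CPM in OIS (median 6.11) and from 0 to 0.737 in OIS-shA1 (median 0.383), a log2 difference of -3.90 (SE 0.42). With 845 counts in OIS against 0 in Grow, MUC5AC was at least 292-fold higher in OIS, taking 3 counts over the group as the floor. LCE3D (chromosome 1, hg19 152551857-152552980, minus strand) ran from 2.71 to 4.00 CPM in OIS (median 3.21) and from 0.333 to 1.83 in OIS-shA1 (median 1.35), a difference of -1.53 (SE 0.22). It was at least 151-fold higher in OIS than in Grow and at least 48.8-fold higher in OIS-shA1 than in Grow-shA1. For both genes the OIS libraries lay above the OIS-shA1 libraries with no overlap, and MUC5AC varied more among OIS libraries (SD 4.09 CPM at a mean of 6.48) than LCE3D (SD 0.395 at 3.29). Of 4 goblet cell markers, SPDEF was at 0 in every OIS library and the sum was at most 0.393 CPM. Of 4 keratinocyte markers, KRT1, KRT5 and KRT14 were at 0, and the sum, from KRT10, was 21.6 to 32.4 CPM in OIS and 21.6 to 33.3 in Grow.

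EVI2A and LINC00452 differed with the hairpin mainly in OIS. EVI2A (chromosome 17, hg19 29644578-29648902, minus strand) ran from 0.379 to 1.46 CPM in Grow (median 0.960), 0.582 to 2.07 in Grow-shA1 (median 1.06), 0 to 0.906 in OIS (median 0.497) and 2.05 to 3.15 in OIS-shA1 (median 2.61). The log2 difference was 0.31 (SE 0.26) in Grow, with overlap, and 2.25 (SE 0.21) in OIS, with none. It lies within the span of NF1, which runs on the other strand, and shares 152 of its 2071 exon bases with NF1 and 524 with ENSG00000265118. Reads in the shared bases were not counted for either gene. The counting used no strand, so reads from either strand over the other exon bases count for EVI2A. NF1 averaged 161 CPM in OIS and 136 in OIS-shA1, and its share in the reads of EVI2A was not tested. LINC00452 (chromosome 13, hg19 114586640-114626485, plus strand) ran from 0.986 to 2.69 CPM in Grow (median 1.47) and 4.42 to 13.02 in OIS (median 6.27). With the hairpin it ran from 0.538 to 2.20 CPM in Grow (median 1.15) and from 0.647 to 1.53 in OIS (median 1.12). Its senescence difference was 2.21 (SE 0.23) without the hairpin and -0.10 (SE 0.25) with it.

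**Figure D2:**
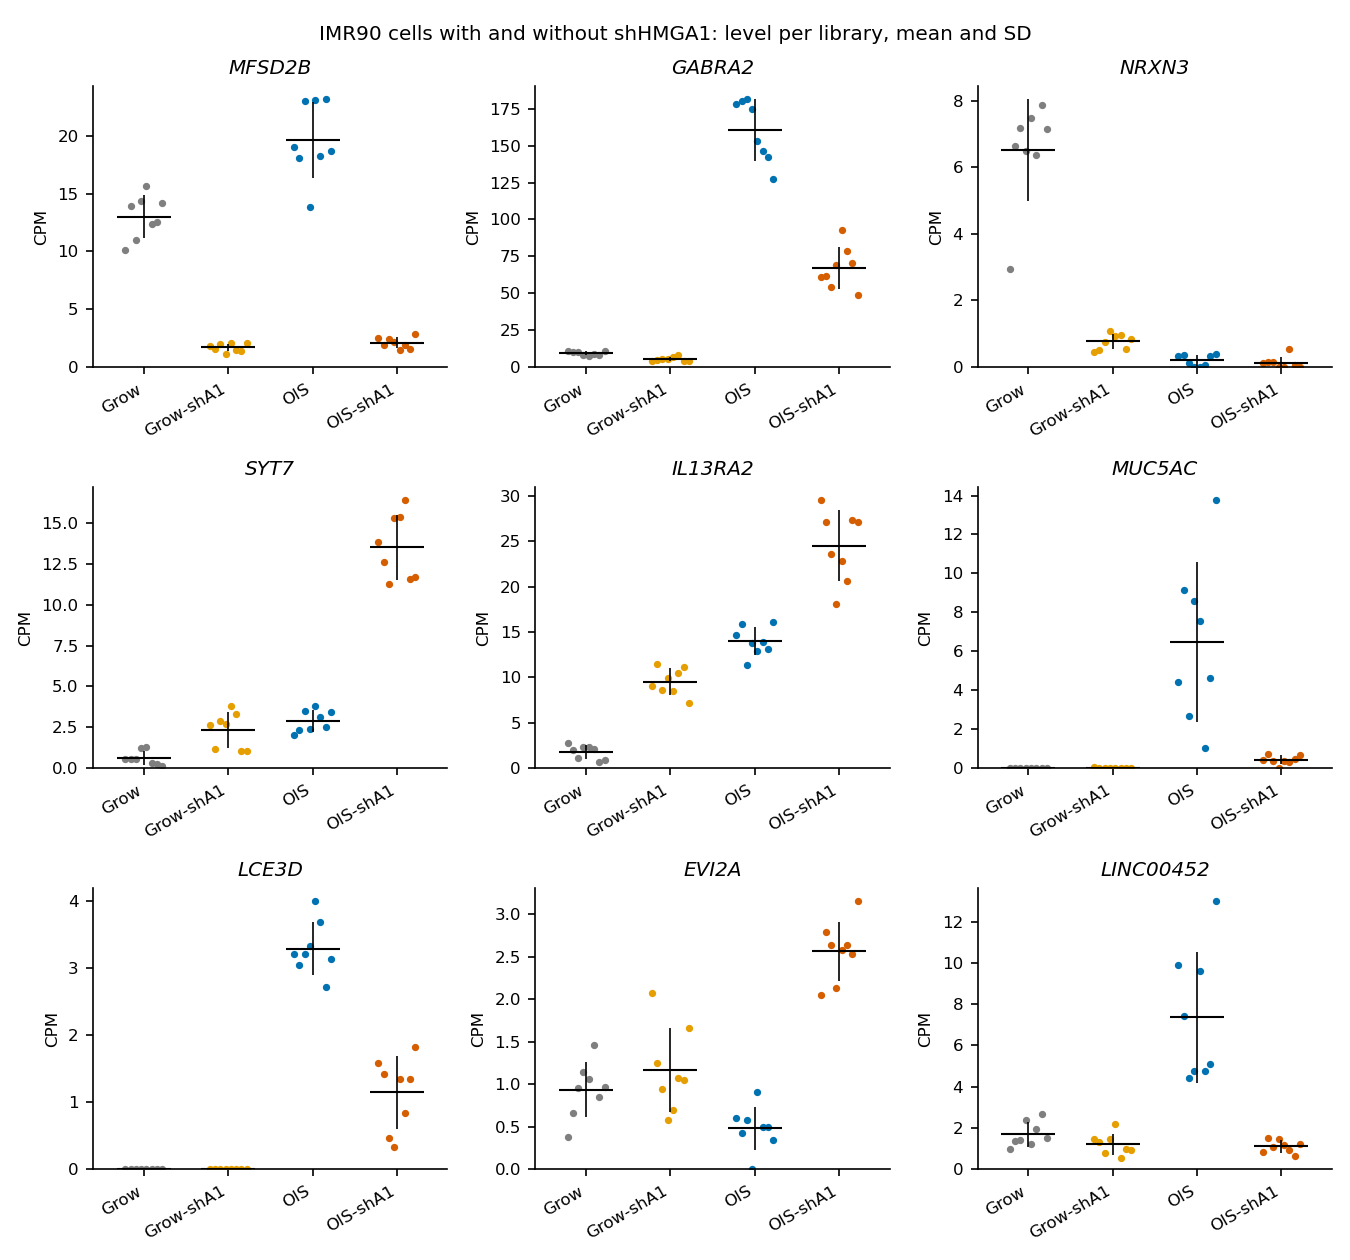
Level of each gene in the first experiment (vertical axes, CPM, linear from 0), with 1 point per library (n = 8 per group), a horizontal line at the mean and a bar of 1 SD. MFSD2B is low in both hairpin groups, GABRA2, MUC5AC, LCE3D and LINC00452 are highest in OIS, SYT7, IL13RA2 and EVI2A are highest in OIS-shA1, and NRXN3 is counted mainly in Grow.

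Counted over the 9 genes, the groups did not overlap for 3 in Grow-shA1 against Grow and for 8 in OIS-shA1 against OIS, where 5 were lower and 3 higher. Over all genes tested, the groups did not overlap for 7.64% and 9.29%, and 29.9% and 35.9% passed the threshold (adjusted p under 0.05). OIS and Grow did not overlap for 7 of the 9 genes without the hairpin, against 43.7% of all genes tested, of which 74.8% passed the threshold. OIS-shA1 and Grow-shA1 did not overlap for 4, against 43.3% of all genes tested, of which 73.1% passed. As the genes were picked on these contrasts, nothing is read from the counts.

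The vector controls of the 2 IMR90 experiments differed for several genes. GABRA2 was 24.2, 26.8, 26.4, 8.06 and 8.36 CPM in Grow-v-v against 237, 227, 219, 119 and 111 in OIS-v-v, a log2 difference of 3.29 (SE 0.38), in the direction of the first experiment. NRXN3 was lower in OIS-v-v (difference -3.79, SE 0.43), and SYT7 (2.79, SE 0.17), IL13RA2 (2.15, SE 0.26) and LCE3D (5.41, SE 0.81) were higher, each with no overlap, so that the groups were apart for 5 of the 9 genes. Over all genes tested the groups were apart for 35% and 45.8% passed the threshold. LINC00452, by contrast, averaged 1.31 ± 0.509 CPM in Grow-v-v and 0.674 ± 0.240 in OIS-v-v (n = 5 each), a difference of -0.91 (SE 0.33) where the first experiment had 2.21. MUC5AC had 0, 0, 1, 9 and 4 counts in the OIS-v-v libraries, at most 0.487 CPM, where the first experiment reached 13.8. SYT7 averaged 16.6 ± 3.68 CPM in OIS-v-v, a level that OIS libraries of the first experiment did not reach (highest 3.78). Levels were scaled separately in the experiments, and the vectors and the library series cannot be told apart.

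CEBPB encodes C/EBP beta, a transcription factor of the inflammatory secretory program of senescent cells. The 3 knock-down groups were each compared with the same OIS-v-v libraries, so these comparisons are not independent. Same-numbered libraries deviated together in this experiment, and replicates 4 and 5 stood apart from replicates 1 to 3, for example for GABRA2. Adjusted p-values from the fit with the replicate number as a block are therefore given where they change a call, with values within replicates 1 to 3 and within 4 and 5, a split chosen after seeing the data.

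With CEBPB knocked down, SYT7 and NRXN3 rose and GABRA2 and IL13RA2 fell. Since a filter on low counts lets in a gene that is counted in 1 group alone, the 9 genes were counted in a fit with no filter beyond 1 count, where these 4 of 9 passed against 9.62% of all genes (17.1% with the filter). GABRA2 was 57.9, 58.7, 49.8, 28.1 and 28.9 CPM in OIS-shCEBPB, below every OIS-v-v library, a log2 change of -2.03 (SE 0.28, adjusted p = 0.000389). The change was the same within both sets of replicates, -2.05 in replicates 1 to 3 and -2.03 in 4 and 5, while the level itself differed between the sets in both groups. IL13RA2 was 8.86, 7.92, 10.1, 5.78 and 6.43 CPM in OIS-v-v and 1.55, 1.06, 1.66, 0.715 and 0.738 in OIS-shCEBPB. It fell by 2.77 on the log2 scale (SE 0.25, adjusted p = 1.3e-05) and its mean in replicates 1 to 3 was 1.42 CPM, against 1.44 in Grow-v-v. In replicates 4 and 5 it was 0.715 and 0.738 against 1.36 and 3.27 CPM in Grow-v-v.

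SYT7 was 18.2, 21.2, 17.8, 12.3 and 13.3 CPM in OIS-v-v and 42.0, 44.9, 43.7, 43.2 and 42.7 in OIS-shCEBPB. It rose by 1.38 on the log2 scale (SE 0.13, adjusted p = 1.53e-05), with no overlap and little spread in the knock-down group. NRXN3 was 0.169, 0.177, 0.116, 0.378 and 0.120 CPM in OIS-v-v and 0.712, 0.918, 0.741, 1.001 and 0.965 in OIS-shCEBPB. It rose by 2.11 (SE 0.31, adjusted p = 0.000574) from 17 counts to 86 over 5 libraries, having passed the filter through OIS-shCEBPB alone, and by 2.12 (SE 0.35, adjusted p = 0.000776) with no filter. Its level stayed below the Grow-v-v mean of 2.83 ± 1.32 CPM (n = 5).

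LCE3D was 5.42, 4.37, 5.06, 1.24 and 0.601 CPM in OIS-v-v and 1.42, 2.20, 1.53, 0.191 and 0.114 in OIS-shCEBPB. The groups overlapped and the log2 difference of -1.59 (SE 0.68) did not pass (adjusted p = 0.141), whereas it did with the replicate block (-1.64, SE 0.22, adjusted p = 0.000106), being -1.51 within replicates 1 to 3 and -2.55 within 4 and 5. LINC00452 differed by 0.64 (SE 0.33, adjusted p = 0.223), with 1.24 in replicates 1 to 3 and -0.41 in replicates 4 and 5. MFSD2B differed by 0.03 (SE 0.29, adjusted p = 0.968). EVI2A, with 51 counts in OIS-v-v (lowest library 0.339 CPM) and 27 in OIS-shCEBPB (highest 0.334 CPM), and MUC5AC were under the filter. MUC5AC had no count in OIS-shCEBPB and was at least 5.30-fold lower than in OIS-v-v, where 9 of its 14 counts came from replicate 4.

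Windows upstream of GABRA2 and NRXN3 are shown because both genes changed with CEBPB knock-down and because each held TTGCNNAA, the letters of a common C/EBP site. The table has 3 windows for each gene, and capitals mark the match. A match is a description of the letters, and no link to the knock-down was tested. TTGCNNAA or TTNNGCAA occurred in 10.5% of all windows. Windows 1 and 2 of GABRA2, window 2 of NRXN3 and the window of LCE3D held neither. GABRA2 window 3 (GRCh38.p14, chr4:46388986-46389285, minus strand) has it 183 bases before the start, and NRXN3 window 3 (chr14:78403469-78403768, plus strand) 66 bases before it. Window 1 of NRXN3 (chr14:78170123-78170422, plus strand) also held it, 129 bases before the start, and window 2 of GABRA2 held TTTATA.
GABRA2 window 3: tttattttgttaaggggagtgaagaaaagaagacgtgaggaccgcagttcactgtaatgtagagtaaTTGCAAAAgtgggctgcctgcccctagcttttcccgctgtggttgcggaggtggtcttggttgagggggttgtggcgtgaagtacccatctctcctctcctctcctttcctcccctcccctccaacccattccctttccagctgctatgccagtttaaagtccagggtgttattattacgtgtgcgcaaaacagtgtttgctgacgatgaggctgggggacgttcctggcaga
NRXN3 window 1: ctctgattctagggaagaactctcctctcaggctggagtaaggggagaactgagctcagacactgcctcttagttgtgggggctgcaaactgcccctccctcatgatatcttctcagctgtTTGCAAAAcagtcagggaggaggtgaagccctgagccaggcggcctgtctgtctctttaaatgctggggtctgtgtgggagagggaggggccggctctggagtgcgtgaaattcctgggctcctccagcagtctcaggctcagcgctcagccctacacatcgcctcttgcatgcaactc
NRXN3 window 3: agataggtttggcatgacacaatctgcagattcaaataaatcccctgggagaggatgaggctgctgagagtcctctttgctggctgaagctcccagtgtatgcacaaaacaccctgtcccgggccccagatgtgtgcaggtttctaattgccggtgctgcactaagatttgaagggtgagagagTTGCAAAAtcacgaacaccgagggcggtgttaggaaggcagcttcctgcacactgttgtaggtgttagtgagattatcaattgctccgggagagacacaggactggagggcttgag

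With p53 knocked down, SYT7 was the only one of the 9 genes to pass, both with the filter (4.44% of all genes passed) and without it (2.2%). It was 33.8, 29.8, 29.03, 21.6 and 22.7 CPM in OIS-shp53, above every OIS-v-v library, a log2 rise of 0.72 (SE 0.16, adjusted p = 0.0289). The call was lost when replicate 1, 2 or 3 of OIS-shp53 or replicate 1, 3 or 5 of OIS-v-v was left out (highest adjusted p = 0.0821), and it held with the block (adjusted p = 1.14e-05) and within both sets of replicates (0.70 and 0.79). LCE3D was 1.38, 0.718, 0.788, 0.290 and 0 CPM in OIS-shp53. Its difference of -2.31 (SE 0.67, adjusted p = 0.0817) passed with the replicate block (adjusted p = 1.14e-05) and without OIS-v-v replicate 4 or 5 (lowest adjusted p = 0.0308).

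GABRA2 was 201, 194, 189, 97.0 and 97.5 CPM in OIS-shp53, lower than the same-numbered OIS-v-v library in each case. The groups overlapped widely and the difference of -0.23 (SE 0.28) did not pass (adjusted p = 0.698), but with the block, which removes the gap between replicate sets, it did (-0.23, SE 0.04, adjusted p = 0.000871). IL13RA2 (-0.26, adjusted p = 0.43), LINC00452 (-0.56, adjusted p = 0.381), EVI2A (0.40, adjusted p = 0.571) and MFSD2B (-0.04, adjusted p = 0.955) did not pass. MUC5AC and NRXN3 were under the filter. MUC5AC had 1 count against 14, a ratio of 15.4 (95% counting interval 2.35 to 653). That interval pools the reads of each group and leaves out the spread between libraries. MUC5AC was at 0 in 4 of the 5 OIS-shp53 libraries and in 2 of the 5 OIS-v-v libraries.

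**Figure D3:**
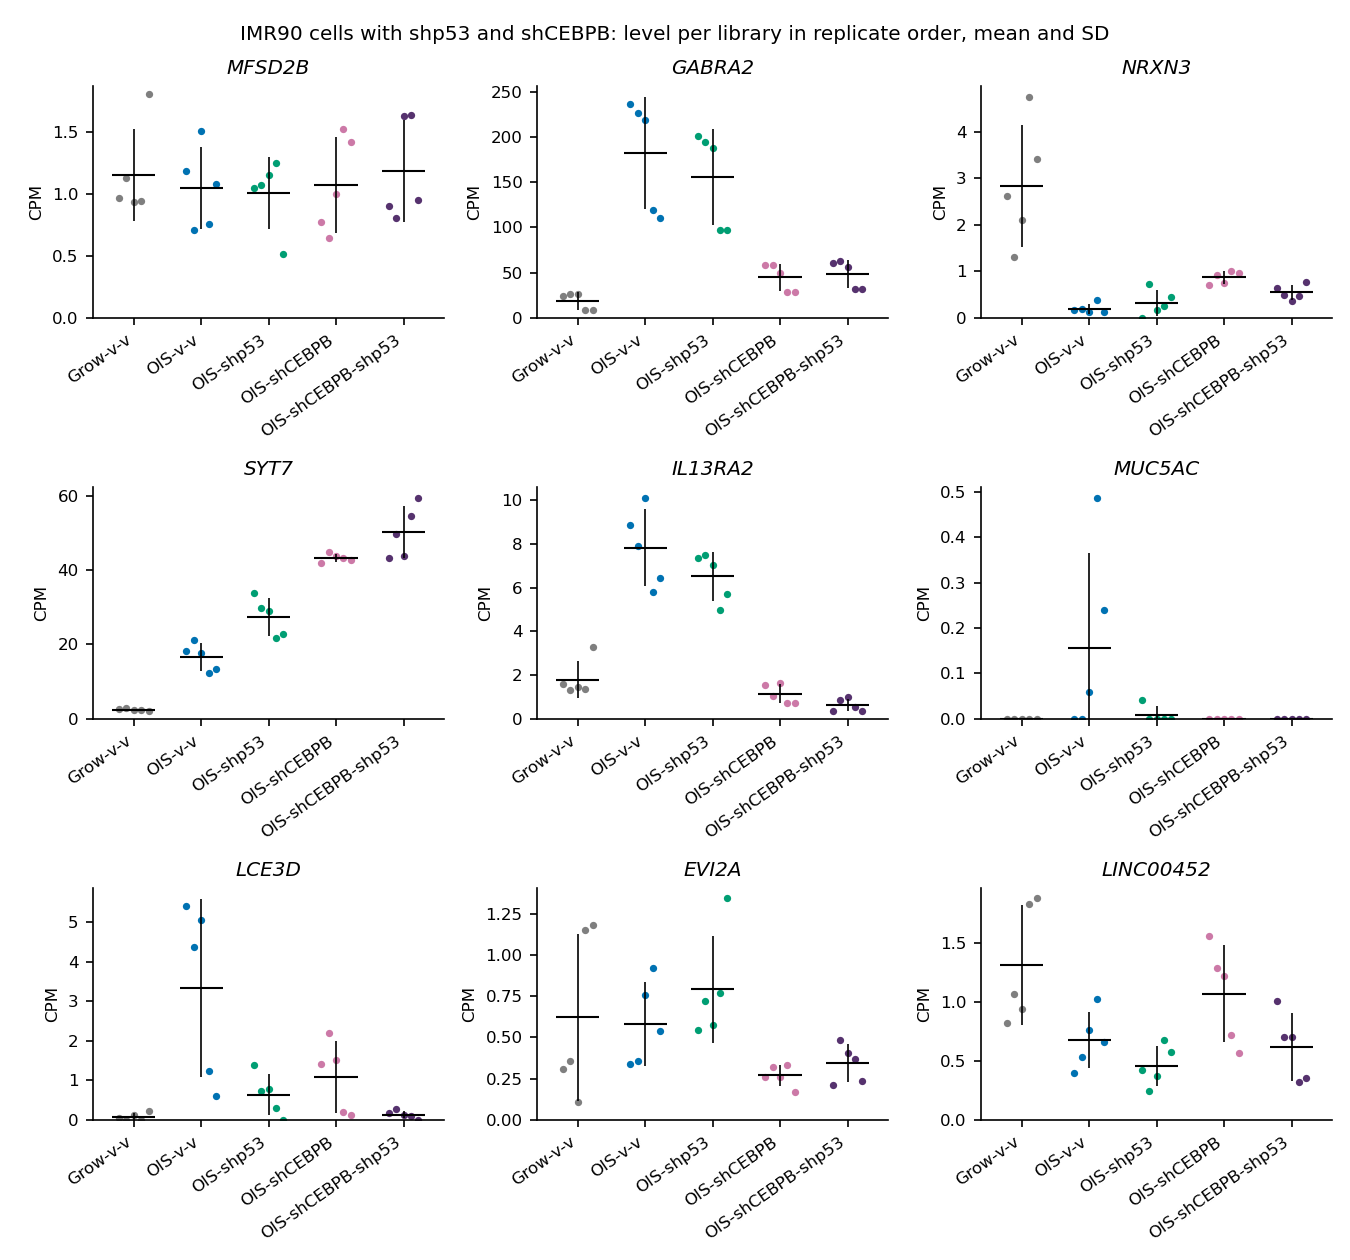
Level of each gene in the second experiment (vertical axes, CPM, linear from 0), with 1 point per library in the order of its replicate number (n = 5 per group), a line at the mean and a bar of 1 SD. GABRA2 and LCE3D fall into a high set (replicates 1 to 3) and a low set (4 and 5) in the OIS groups, SYT7 is highest in the groups with the CEBPB hairpin, and MFSD2B lies between 0.513 and 1.81 CPM throughout.

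With both knocked down, SYT7 rose and LCE3D, GABRA2 and IL13RA2 fell against OIS-v-v. With no filter these and NRXN3 passed, 5 of the 9 genes against 20% of all genes (33.6% with the filter). NRXN3 differed by 1.44 there (SE 0.40, adjusted p = 0.0182). LCE3D was 0.159, 0.268, 0.117, 0.106 and 0 CPM, 12 counts over 5 libraries against 290 in OIS-v-v, a fall of 4.60 on the log2 scale (SE 0.73, adjusted p = 0.000488) having passed the filter through OIS-v-v alone. With no filter it fell by 4.59 (SE 0.67, adjusted p = 0.000149), and Grow-v-v had 6 counts. SYT7 was 43.3, 49.6, 43.7, 54.5 and 59.5 CPM (rise of 1.58, SE 0.15, adjusted p = 7.85e-06). GABRA2 was 60.3, 62.5, 56.6, 31.4 and 32.2 CPM (change of -1.92, SE 0.27, adjusted p = 0.000212). IL13RA2 was 0.371, 0.858, 0.991, 0.530 and 0.358 CPM (change of -3.65, SE 0.27, adjusted p = 9.17e-07).

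The double knock-down was also compared with CEBPB knocked down alone. Against OIS-shCEBPB none of the 6 genes tested passed in edgeR with the filter (14.8% of all genes did), none passed in DESeq2, and 4 had an unadjusted p under 0.05. With the replicate block 4 passed, where 33% of all genes did: SYT7 (0.20, adjusted p = 0.0249), GABRA2 (0.13, adjusted p = 0.0376), IL13RA2 (-0.85, adjusted p = 0.0224) and LINC00452 (-0.80, adjusted p = 0.0127). NRXN3 differed by -0.67 (SE 0.24, adjusted p = 0.076) and passed without replicate 5 of OIS-shCEBPB-shp53 (adjusted p = 0.0487). LCE3D, with 111 counts in OIS-shCEBPB and 12 in OIS-shCEBPB-shp53, was under the filter. With no filter it was the only 1 of 8 genes to pass (8.07% of all genes did), with a fall of 3.01 (SE 0.73, adjusted p = 0.0169), and its difference was -3.21 within replicates 1 to 3 (SE 0.38, adjusted p = 1.38e-06).

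Against OIS-shp53 the combined knock-down raised SYT7 by 0.85 (SE 0.13, adjusted p = 0.000301) and lowered GABRA2 (change of -1.70, SE 0.27, adjusted p = 0.000466) and IL13RA2 (-3.40, SE 0.24, adjusted p = 6.67e-07), with no overlap for any of them (27.6% of all genes passed). With no filter LCE3D (-2.28, SE 0.71, adjusted p = 0.0394) and EVI2A (-1.17, SE 0.34, adjusted p = 0.0275) passed as well, 5 of 8 genes against 16% of all genes. Whether the p53 hairpin acted differently with and without the CEBPB hairpin was tested as an interaction. None of the 8 genes fitted passed (6 of 13873 genes did), and with the block GABRA2 did, at 0.36 (SE 0.06, adjusted p = 0.00131, 104 of 13873 genes).

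**Figure D4:**
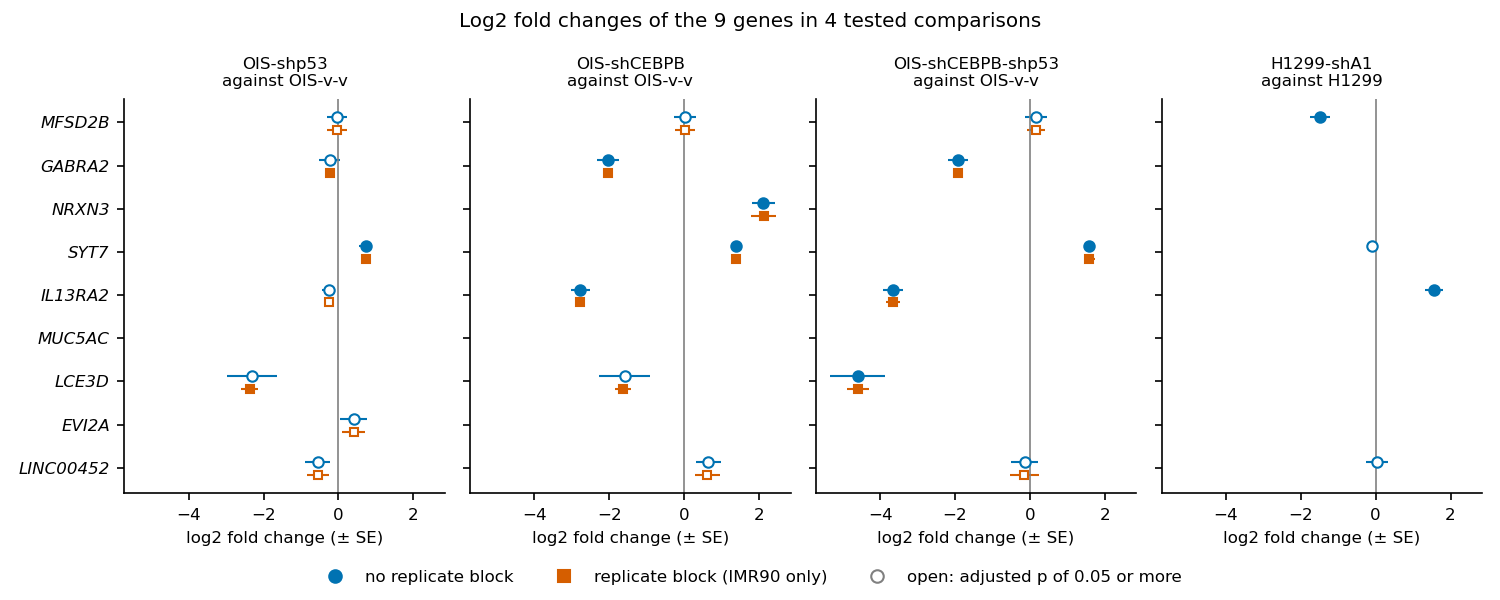
Log2 fold change (horizontal axes, with bars of 1 SE) of the 9 genes in 4 tested comparisons, without the replicate block (circles) and with it (squares, IMR90 only), filled where the adjusted p is under 0.05. Genes with no symbol were under the filter on low counts, and the block leaves the estimates in place while it shortens the bars of GABRA2 and LCE3D.

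H1299 cells held the same HMGA1 hairpin as IMR90 cells. In H1299 cells HMGA1 fell from 1888 ± 94.6 CPM (n = 7) to 379 ± 35.4 (n = 6), a log2 change of -2.31 (adjusted p = 5.54e-17). MFSD2B fell and IL13RA2 rose, both having passed the filter through the group in which they were high (15.6% of all genes passed the threshold). With no filter they and GABRA2 passed, 3 of 6 genes against 8.37% of all genes. MFSD2B ran from 0.540 to 0.867 CPM in H1299 (median 0.599) and from 0.103 to 0.424 in H1299-shA1 (median 0.192). It fell by 1.48 on the log2 scale (SE 0.28, adjusted p = 0.00108) with no overlap, on 95 counts against 27. IL13RA2 ran from 0.195 to 0.684 CPM in H1299 (median 0.276) and from 0.876 to 1.23 in H1299-shA1 (median 1.10), a rise of 1.56 (SE 0.23, adjusted p = 0.000137) with no overlap, on 54 counts against 130. With no filter the values were -1.49 (SE 0.30, adjusted p = 0.00112) for MFSD2B and 1.56 (SE 0.24, adjusted p = 5.74e-05) for IL13RA2.

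SYT7 was 1.82 ± 0.236 CPM in H1299 (n = 7) and 1.72 ± 0.228 in H1299-shA1 (n = 6), a difference of -0.09 (SE 0.13, adjusted p = 0.697). LINC00452 was 0.511 ± 0.208 CPM against 0.523 ± 0.176 (difference 0.04, SE 0.29, adjusted p = 0.952). The other 5 were under the filter. GABRA2 had 2, 0, 0, 0, 1, 1 and 2 counts in the H1299 libraries and 2, 6, 3, 9, 2 and 4 in H1299-shA1, at most 0.0974 and 0.477 CPM. The groups overlapped, and with no filter GABRA2 rose by 2.26 (SE 0.59, adjusted p = 0.0136), whereas it was lower with the hairpin in IMR90 cells. EVI2A had 4 and 11 counts (1.57 with no filter, SE 0.77, adjusted p = 0.243), NRXN3 and MUC5AC 1 and 0, and LCE3D 0 in all 13 libraries.

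**Figure D5:**
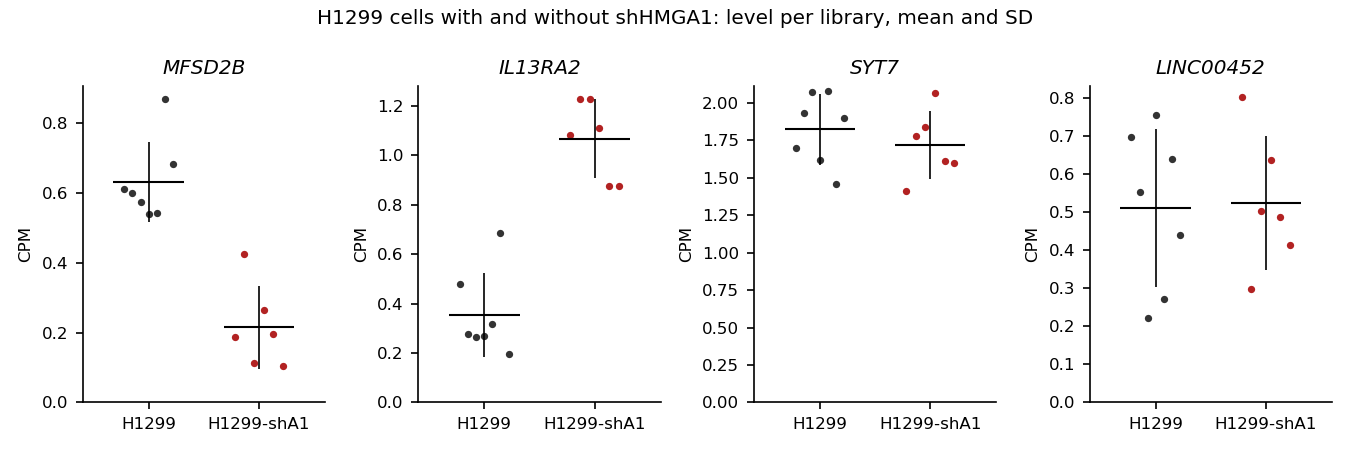
Level (vertical axes, CPM, linear from 0) of the 4 genes that passed the filter in H1299 cells, with 1 point per library, a line at the mean and a bar of 1 SD (n = 7 for H1299, n = 6 for H1299-shA1). MFSD2B libraries with the hairpin reach at most 0.424 CPM and vector libraries at least 0.540, IL13RA2 libraries are apart in the other direction, and SYT7 and LINC00452 overlap.

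Genes within 100 kb on hg19 were read alongside. EVI2B, a transmembrane protein gene 3448 bases from EVI2A, rose with the HMGA1 hairpin in OIS from 3.75 to 14.1 CPM (log2 change of 1.84, SE 0.11, adjusted p = 1.02e-12), as EVI2A was higher, while NF1, in which both lie, fell by 0.25 (adjusted p = 0.000274). ENSG00000260878, 4212 bases from GABRA2 on the same strand, rose in OIS (4.75, adjusted p = 1.8e-10), fell with the hairpin in OIS (-1.22, adjusted p = 0.00183) and fell with CEBPB knocked down (-2.08, SE 0.33, adjusted p = 0.00103). LRCH2, 90645 bases from IL13RA2, rose with the HMGA1 hairpin in OIS (0.87, SE 0.07, adjusted p = 5.58e-11) and in H1299 (1.09, SE 0.14, adjusted p = 3.19e-05).

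RPLP0P2, a pseudogene 33888 bases from SYT7, rose in OIS from 0.885 to 81.7 CPM (6.59, adjusted p = 9.95e-27) and with the hairpin in OIS (0.49, adjusted p = 2.46e-07), where SYT7 was higher too, and reads of a pseudogene are uncertain because its parent gene is nearly identical. GAS6, a ligand of the TAM receptors 19594 bases from LINC00452, fell in OIS by 2.96 (adjusted p = 7.06e-22) where LINC00452 was higher.

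The relatives of the 9 genes were taken from lists by family or pathway. Of 13 other genes listed for sphingosine-1-phosphate handling, some of them only relatives of its transporters, 8 were tested in Grow-shA1 against Grow. Among these 1 fell, the MFSD2B relative MFSD2A (-0.31, adjusted p = 0.0142). In OIS-shA1 against OIS, 11 were tested, 2 rose and 1 fell (35.9% of all genes did either). The receptor gene S1PR1 rose there from 0.536 to 1.15 CPM (0.97, SE 0.32, adjusted p = 0.0172), SPHK1, which makes the lipid, rose by 0.19 (adjusted p = 0.0349) and S1PR3 fell by 0.23 (adjusted p = 0.0115). The medians of the list were -0.10 and 0.06, against 0.01 and 0.00 over all genes.

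Of 16 other synaptotagmins, 5 were tested in OIS-shA1 against OIS and SYT14 alone changed, where 35.9% of all genes did (1.997, SE 0.29, adjusted p = 5.03e-06, from 0.622 to 1.65 CPM). In Grow-shA1 against Grow 5 were tested, of which 0 rose and 3 fell (29.9% of all genes passed, list median -0.47 against 0.01). In OIS against Grow 6 were tested, of which 2 rose and 4 fell (74.8% of all genes passed, list median -0.92 against 0.03). SYT7 itself was higher in both. With CEBPB knocked down 4 were tested and 2 rose (with the block 3 rose and 1 fell), SYT14 (1.23, adjusted p = 0.0238) and SYT17 (1.14, adjusted p = 0.0367), against 17.1% of all genes (31.9% with the block), the list median being 0.72 against 0.00. SYT17 rose with p53 knocked down too (1.38, SE 0.27, adjusted p = 0.0138). Among 14 neurexin genes and partners, 5 were tested in OIS against Grow, of which 2 rose and 2 fell, where 74.8% of all genes passed (median -0.10, against 0.03 over all genes). CBLN2, a secreted neurexin ligand, rose from 2.21 to 97.0 CPM (5.55, SE 0.11, adjusted p = 7.25e-26) while the neuroligin gene NLGN1 fell (-2.29, adjusted p = 1.79e-13). With CEBPB knocked down 2 of 5 rose and 1 fell (with the block 3 rose and 1 fell), where 17.1% of all genes passed (31.9% with the block). NLGN1 rose (1.45, SE 0.31, adjusted p = 0.0061) and CBLN2 fell (-1.13, SE 0.31, adjusted p = 0.0241).

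Of 18 matched GABA-A receptor genes other than GABRA2, counting the anchoring protein gene GPHN, 3 passed the filter in each IMR90 comparison. GABRB1 fell in OIS against Grow from 8.80 to 4.55 CPM (-0.89, SE 0.12, adjusted p = 1.55e-07). Of 15 other mucins 2 were tested in IMR90 cells, and neither passed in OIS-shA1 against OIS (median -0.28, against 0.00 over all genes). In OIS against Grow MUC1 fell (-0.82, SE 0.20, adjusted p = 0.000692) and MUC12 rose (1.06, SE 0.22, adjusted p = 0.0001), and MUC12 fell with CEBPB knocked down (-0.93, SE 0.16, adjusted p = 0.00187).

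Of the 11 genes of the interleukin 13 and 4 system 7 were tested in the IMR90 comparisons. With the hairpin 4 rose and 1 fell in Grow, and 1 rose in OIS, where 29.9% and 35.9% of all genes passed (medians 0.17 and 0.02, against 0.01 and 0.00). POSTN, a matrix protein gene that interleukin 13 can raise, rose with the HMGA1 hairpin in Grow (0.70, SE 0.11, adjusted p = 3.57e-05) and in OIS (0.67, SE 0.08, adjusted p = 1.03e-07), as IL13RA2 was higher, but with CEBPB knocked down it rose from 232 to 593 CPM (1.35, SE 0.07, adjusted p = 1.62e-07) where IL13RA2 fell. In H1299 cells SOCS1, an inhibitor of JAK signalling, rose (0.60, SE 0.17, adjusted p = 0.0215).

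Of the 29 matched cornified envelope genes other than LCE3D, 5 were tested in OIS against Grow. Those near 0 in Grow passed the filter only through OIS, where they are high, so no count is given. IVL, the envelope precursor involucrin, rose from 0.0491 to 6.47 CPM (6.87, SE 0.28, adjusted p = 4.68e-19) and fell with the hairpin in OIS to 2.05 CPM (-1.70, SE 0.13, adjusted p = 1.09e-10), as LCE3D was lower. LCE2C, 94791 bases from LCE3D, fell there too (-1.02, SE 0.25, adjusted p = 0.00174), but LCE2A rose (0.77, SE 0.25, adjusted p = 0.0173). With both CEBPB and p53 knocked down IVL fell against OIS-v-v from 8.17 to 0.142 CPM (-5.77, SE 0.87, adjusted p = 0.000337).

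Genes with the most similar profile were ranked by Pearson's r of log2 CPM over the 32 libraries of the first experiment, among 13903 genes. The libraries form 4 groups and are shared by all genes, so r mainly describes the order of the group means. As the 9 genes were picked on contrasts of these same libraries, nothing is read from the ranks. HMGA1 was the most similar gene to MFSD2B (r = 0.985), ahead of TRIR (0.973) and THBS2 (0.943), SERPINA1 to GABRA2 (0.989), ATP6V0E1 (0.937) and CXCL8 (0.935) to SYT7, and CXCL1 to IL13RA2 (0.972). UAP1 was closest to NRXN3 (0.949), GRB10 to MUC5AC (0.945), IGFN1 to LCE3D (0.978, with IVL at 0.976), VTI1A to EVI2A (0.837) and HIVEP3 to LINC00452 (0.887). Among the 9 genes, GABRA2 and LCE3D were closest (0.965), followed by MUC5AC and LCE3D (0.917), and NRXN3 and IL13RA2 were most opposed (-0.915).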

How the data were processed

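Libraries were poly(A) RNA made with 2 stranded kits on 2 sequencer models, and which library had which is not given in the sources used here. Per the file headers and methods, the authors mapped reads to hg19 (STAR) and assigned them to GENCODE19 exons by featureCounts (1.5.2 in the headers, another version in the methods, no header in the second IMR90 table), ignoring strand and dropping multi-mapped and multi-gene reads. The deposited values are raw counts per gene.

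Each comparison was fitted here on its own libraries over all genes of its table in edgeR 4.0.16 (R 4.3.3), with TMM factors, the filterByExpr filter (minimum count 10), the quasi-likelihood F test and Benjamini-Hochberg adjustment over all genes tested (threshold 0.05). The p-values measure the spread between these libraries. An SE is the log2 fold change divided by the square root of F. Against a group at 0, a fold is a bound from 3 counts over the group. The scripts were tested on simulated data. Alternatives were other scalings, no filter, DESeq2 1.42.0, all groups in 1 fit, a replicate block and libraries left out.

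In the second IMR90 table every pair of same-numbered libraries correlated (lowest r 0.14), and in the other tables not all did. No correlation of differently numbered libraries was set against these values. Whether the numbers pair single libraries, beyond the split into replicate sets, was therefore not tested. The fits with the replicate block take the numbers as pairs, and calls that pass only there depend on this. The members and lists were chosen with earlier results of these data known. Named are the 9 genes, HMGA1 and CEBPB as knocked-down genes, the most changed relatives and neighbours within 100 kb past the threshold, and the genes most alike by r. SYT7, IL13RA2, MUC5AC, EVI2A and LINC00452 had no promoter window in the RefSeq table. Some results that the rule for named genes would give are not reported here.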

Additional observations from a re-analysis of the deposited data

Results flagged for a closer look

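Among 89 pairs of a gene and a group with 4 to 10 libraries, 11 held a library that lay apart from the rest by Dixon's criterion, which chance alone meets in about 1 in 20. In Grow-v-v, replicate 5 was highest for MFSD2B (1.81 CPM, next 1.13) and for IL13RA2 (3.27 CPM, next 1.59). In OIS-shp53, replicate 5 was lowest for MFSD2B (0.513 CPM, next 1.05) and highest for EVI2A (1.35 CPM, next 0.773). NRXN3 was lowest in Grow replicate 1 (2.96 CPM, next 6.38) and highest in OIS-shA1 replicate 6 (0.528 CPM, 12 counts) and OIS-v-v replicate 4 (0.378 CPM, 7 counts). The other 4 were single counts in groups otherwise at 0: NRXN3 in H1299 replicate 6 (0.0456 CPM), and MUC5AC in Grow-shA1 replicate 1 (0.0575), OIS-shp53 replicate 1 (0.0419) and H1299 replicate 3 (0.0441).

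The effect of the p53 hairpin on GABRA2 differed with and without the CEBPB hairpin only in the fit with the replicate block, by 0.3614 on the log2 scale (SE 0.06, adjusted p = 0.00131 in edgeR). Without the block the difference was 0.35 (SE 0.41, adjusted p = 0.999).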

How the results depend on the processing

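Upper-quartile factors, DESeq2 size factors, library sizes alone and no filter each left all 35 values of the 9 genes tested with the filter on their side of the threshold and in their direction. The DESeq2 test moved 1 of 35, and the replicate block moved 7 of 35, all to a call. Scaling by library sizes alone moved the median of all genes in OIS against Grow from 0.03 to 0.22 and the split of calls in OIS-shA1 against OIS from 2500 higher and 2284 lower to 1553 and 4037. In the first experiment and in H1299 cells not all same-numbered libraries correlated. The 9 genes were not tested in the first experiment, where the block left their log2 differences similar (for example MFSD2B -2.92 in Grow-shA1 and -3.24 in OIS-shA1). In H1299 cells the block changed no call among the 9 genes. Over all genes the calls did change, from 4784 to 4125 in OIS-shA1 against OIS and from 2311 to 2425 in H1299-shA1 against H1299.

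Genes called over the whole table moved most in the second experiment. In OIS-shCEBPB there were 2290, 4270 with the block and 4408 in replicates 1 to 3. In OIS-shp53 there were 594, 3037 with the block, 1091 in DESeq2, 4578 in replicates 1 to 3 and 336 to 938 with a library left out. OIS-shCEBPB-shp53 gave 4502 against OIS-v-v and 7240 in replicates 1 to 3. Against OIS-shCEBPB it gave 1992, 4425 with the block, 1012 with all groups in 1 fit, 4397 in replicates 1 to 3 and 1199 to 2645 with a library left out.

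Of the 9 genes, the p53 knock-down called 1, 3 with the block, 2 in DESeq2 and with all groups in 1 fit, 4 in replicates 1 to 3, and 0 to 2 with a library left out. Of all genes tested, 4.44% passed there, 22.7% with the block and 34% in replicates 1 to 3. The shares were 8.16% in DESeq2, 3.63% with all groups in 1 fit and 2.49% to 6.96% with a library left out. OIS-shCEBPB-shp53 against OIS-shCEBPB called 0, 4 with the block, 1 with no filter, with all groups in 1 fit and in replicates 4 and 5, 3 in replicates 1 to 3, and 0 to 1 with a library left out. Of all genes 14.8% passed there, 33% with the block, 32.5% in replicates 1 to 3 and 18.8% in replicates 4 and 5. The shares were 8.07% with no filter, 7.21% with all groups in 1 fit and 8.87% to 19.5% with a library left out. Against OIS-shp53 the double knock-down called 3 (27.6% of all genes), and 5 with no filter (16%) or in replicates 1 to 3 (41%).

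Signs turned in differences that had not passed or were not tested. MFSD2B was 0.18 in replicates 1 to 3 of OIS-v-v against Grow-v-v, -0.49 in those of OIS-shCEBPB and -0.0515 in those of OIS-shCEBPB-shp53 against OIS-v-v. In replicates 4 and 5 it was 0.021 for OIS-shp53 and -0.16 for OIS-shCEBPB-shp53 against OIS-shCEBPB. LINC00452 was -0.41 in replicates 4 and 5 of OIS-shCEBPB and 0.51 in replicates 1 to 3 of OIS-shCEBPB-shp53. With a library left out, MFSD2B ranged from -0.29 to 0.0765 (OIS-v-v), -0.13 to 0.20 (OIS-shCEBPB), -0.15 to 0.13 (OIS-shp53) and -0.0073 to 0.31 (OIS-shCEBPB-shp53 against OIS-shCEBPB), where GABRA2 ranged from -0.0103 to 0.24. LINC00452 ranged from -0.39 to 0.0707 in OIS-shCEBPB-shp53 against OIS-v-v and from -0.14 to 0.18 in H1299 cells. The cause was not tested. Depth limits what can be said of genes under the filter, and of NRXN3 in OIS, EVI2A in the second experiment, and NRXN3, MUC5AC and LCE3D in H1299 cells.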
